A study of Pyrus hybrid rootstock with 24 samples.

Results

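The step from 9 to 30 days after grafting (DAG) in pear homografts was described from the 3 graft union libraries of 30 DAG, named SVC, and the 3 of 9 DAG, named SCD. These are 6 of the 24 libraries of the series, taken by the graft type and the day in their labels. A gene was tested when its FPKM was at least 1 in at least 3 of the 6 libraries, and 24821 of the 42812 genes in the files met this. FPKM counts the reads on a gene relative to its length and to the reads of the library, so that levels of different genes can be set side by side.

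Homografts were the clonal pear “Qingzhen D1” (Pyrus communis × Pyrus bretschneideri) joined to a rootstock of the same clone, and the heterografts used for comparison had a QAUP-1 (Pyrus ussuriensis) scion on the same rootstock. All were micro-grafted plantlets held together with silicon tubing and kept in tissue culture on 1/2 MS medium with sucrose, the cytokinin 6-BA and the auxin IBA, so that both days and both graft types had these hormones in the medium. Each condition had 3 libraries, which the methods call biological replicates. The labels do not say whether a library held 1 union or several, and the p values measure the spread between these libraries. Scion and rootstock tissue were not separated. The label of the tissue, stem, was not checked against marker genes, because the sources used here pair names with the identifiers of only a few genes, none of them a tissue marker.

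A graft heals by callus growth across the wound, then by the forming of a cambium in the callus, and last by new xylem and phloem that join the vessels of scion and rootstock. Auxin moving down from the shoot promotes the differentiation of vascular tissue, and cytokinin promotes cell division in callus and cambium. In the anatomical staging of the study, 9 DAG stands for the stage of cambium differentiation and 30 DAG for the stage of vascular connection.

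Reads on genes, which could be recovered as whole numbers from the FPKM values, ranged from 11958383 to 13629999 in SCD and from 11596935 to 12127623 in SVC. The difference gave an exact permutation p of 0.2, two-sided, and 3 libraries against 3 cannot give less than 0.1. Between 24104 and 24612 genes had an FPKM of at least 1 in SCD, and between 24425 and 24597 in SVC (exact permutation p = 0.7). The 10 most abundant genes took 4.34% to 4.74% of the reads in SCD and 3.89% to 4.11% in SVC, which did not overlap (exact permutation p = 0.1). No 2 libraries had identical values.

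One library of 30 DAG stood apart from the rest. The squared correlation of log2(FPKM + 1) over the tested genes was 0.966 between SVC replicates 1 and 3, but 0.952 and 0.949 between each of them and replicate 2. Among the SCD libraries it was 0.954 to 0.963, so that the values within 30 DAG alone set replicate 2 apart only slightly. With the SCD libraries, SVC replicate 2 gave 0.910 to 0.930, whereas replicates 1 and 3 gave 0.875 to 0.892. Each library was also placed on the axis between the mean of SCD, at 0, and the mean of SVC, at 1, with the library itself left out of these means. SVC replicates 1 and 3 lay at 1.02 and 1.01, and replicate 2 lay at 0.63. The SCD libraries lay at 0.12, 0.06 and 0.19, close to the libraries of 1 DAG (0.14 to 0.21) and 5 DAG (0.07 to 0.20). With replicate 2 also left out of the SVC mean, replicates 1 and 3 lay at 0.83 and 0.84, each placed against the other alone. Replicate 2 remained at 0.63, placed against the mean of both, so that these positions are not on exactly the same scale. The main counts were therefore also made without this library.

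**Figure D1:**
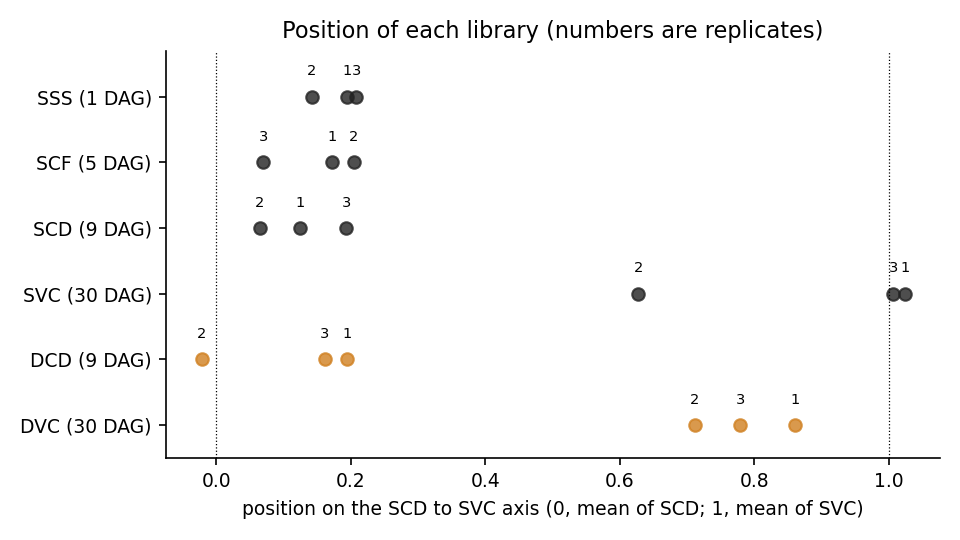
Position of each library on the axis between the mean of SCD (0) and the mean of SVC (1), over all tested genes, with the library itself left out of the means. Black points are homograft and orange points heterograft libraries, and the numbers are replicates. SVC replicate 2 lies at 0.63, between the SCD libraries (0.06 to 0.19) and the other SVC libraries (1.01 and 1.02).

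Which genes differed between SCD and SVC was tested with limma on log2(FPKM + 1), with the spread estimated from all 24 libraries. A gene was called when the log2 fold change, SVC minus SCD, was above 1 in size and the Benjamini-Hochberg adjusted p over all tested genes was below 0.05. At 30 DAG, 706 genes were higher and 632 genes were lower, which made 1338 called genes, 5.39% of those tested (2.84% higher and 2.55% lower). In bulk tissue, fewer cells of a type and less RNA per cell cannot be told apart, and this holds for every difference reported here. The 3 SVC values lay beyond all 3 SCD values in 680 of the 706 higher genes and in 611 of the 632 lower genes. Over all tested genes, the libraries of the days did not overlap in 42.1% (23.6% higher and 18.5% lower in SVC). The methods do not state whether p was adjusted. With an unadjusted p below 0.05, 1434 genes were called (5.78%), 743 higher (2.99%) and 691 lower (2.78%). Without SVC replicate 2, 1686 genes were called, 878 higher and 808 lower, and 1239 of the 1338 calls were kept.

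Most of the transcriptome moved little. The median log2 fold change of all tested genes was 0.05, and the 5th and 95th percentiles were −0.80 and 0.80. In 19224 genes, 77.5% of those tested, the 95% interval of the log2 fold change lay wholly between −1 and 1. A further 4259 genes were neither called nor bounded in this way, so that for them the size of a difference was not settled by these libraries. An adjusted p below 0.05 without a fold limit was reached by 6507 genes (26.2%), 3670 higher (14.8%) and 2837 lower (11.4%).

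The changes were mostly between 2-fold and 4-fold on the scale of FPKM + 1. Among the higher genes, the log2 fold change was between 1 and 2 in 610, between 2 and 3 in 73 and above 3 in 23, with a median of 1.33. Among the lower genes, 577 had a log2 fold change between −1 and −2, 50 between −2 and −3 and 5 below −3, with a median of −1.26. The mean FPKM in SCD was below 1 for 147 of the higher genes, between 1 and 10 for 349, between 10 and 100 for 178 and at least 100 for 32. On the day of their lower level, SVC, 92 of the lower genes had a mean FPKM below 1 and 32 a mean of at least 100. Since 1 was added to FPKM before the log, the change of the genes of low level is understated.

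**Figure D2:**
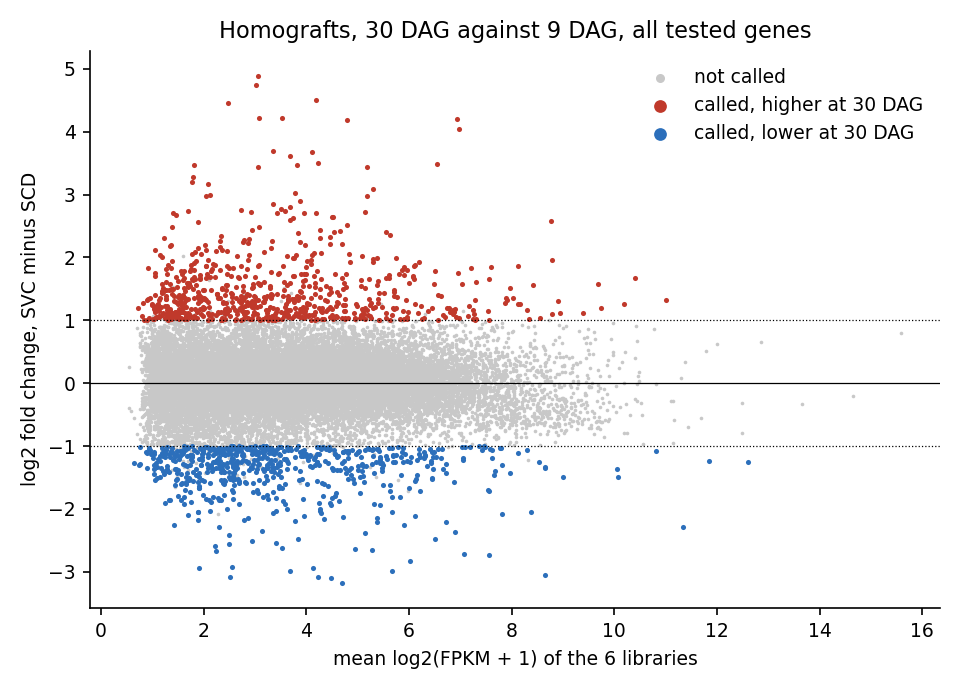
Log2 fold change from 9 to 30 DAG in homografts (SVC minus SCD, on log2(FPKM + 1)) against the mean level of the 6 libraries, for the 24821 tested genes. Red points are the 706 genes called higher and blue points the 632 called lower, and dotted lines mark log2 fold changes of −1 and 1. The higher genes reach 4.89 and the lower genes −3.17.

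A change from no reads to reads was rare. Of the tested genes, 169 were below an FPKM of 1 in all 3 SCD libraries, and 82 of these were called higher. In the opposite direction, 119 genes were below 1 in all 3 SVC libraries, and 46 of these were called lower. Such genes were tested only because the libraries of the other day all reached an FPKM of 1, so that the filter fixed their direction, as it did for the genes without reads on one day. Only 2 tested genes had 0 reads in SCD, with 79 and 94 reads in SVC. Against a floor of 3 reads over the 3 libraries, they were at least 28.7-fold and 34.2-fold higher in SVC. Of the tested genes, 1 had 0 reads in SVC and 23 reads in SCD, at least 7.03-fold lower. Such limits cover counting error only.

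The called genes took different shares of each library. The 706 higher genes held 1.23%, 1.22% and 1.46% of the reads in the SCD libraries and 3.89%, 2.99% and 4.02% in SVC replicates 1, 2 and 3. The 632 lower genes held 4.13%, 4.34% and 4.40% in SCD and 1.33%, 1.97% and 1.37% in SVC. These genes were chosen for the difference, so that the shares describe its size in each library and are no test of it. SVC replicate 2 was the SVC library nearest SCD in both sets. Gene by gene, it was the nearest in 530 of the 706 higher and 410 of the 632 lower genes.

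SVC replicate 2 was also set against genes called without it. These genes were chosen with the same SCD libraries that serve as its reference, which favours a shared direction, and the values are given as a description. Of the 1686 genes called without that library, its value lay on the same side of the SCD mean as the other SVC libraries in 1635 (97.0%), against 78.1% of all tested genes. Its difference from SCD was 62.7% of that of the other SVC libraries in the median gene, with quartiles of 44.3% and 82.3%. The medians were alike in both directions, at 62.6% for the 878 higher and 62.9% for the 808 lower genes. No value in the labels tells this library from the others of 30 DAG. In the sequencing statistics of the study, SVC replicate 1 had the lowest share of mapped reads of all libraries, and SVC replicate 2 the next lowest. Whether mapping bears on the position of replicate 2 was not tested.

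The genes with the largest change are given by identifier only. Pbr028374.1 had FPKM values of 0.360, 0.246 and 1.23 in SCD and of 92.1, 32.7 and 22.4 in SVC. All SVC libraries lay far above all SCD libraries, with replicate 1 the highest. The log2 fold change was 4.75 ± 0.42 (SE, n = 3 per day), with a limma adjusted p of 1.655e-06. Pbr017001.1, a short gene of 168 bp, had 0.873, 0.898 and 0 FPKM in SCD and 106.8, 26.5 and 30.0 in SVC, from 4 and 322 reads in all. It was higher in every SVC library, and again most so in replicate 1 (log2 fold change 4.89 ± 0.54, limma adjusted p = 1.208e-05). These SE and p values take the spread from all conditions. With the spread from only the 6 libraries compared, the limma adjusted p values were 0.0032 for Pbr028374.1 and 0.0037 for Pbr017001.1. Without SVC replicate 1 the log2 fold changes were 4.17 for Pbr028374.1 and 4.26 for Pbr017001.1, and with 0.1 in place of 1 added to FPKM they were 6.10 and 6.58. Both genes had low levels on the earlier days as well, with means of 1.52 and 1.24 FPKM at 1 DAG and of 2.19 and 0 FPKM at 5 DAG.

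Of the genes that fell, Pbr011579.1 had 77.6, 50.2 and 68.0 FPKM in SCD and 4.13, 10.7 and 6.24 FPKM in SVC. The groups did not overlap, and SVC replicate 2 was nearest to SCD. The log2 fold change was −3.11 ± 0.30 (SE, n = 3 per day), with a limma adjusted p of 2.448e-06. Pbr005220.1 had 59.7, 68.7 and 110.8 FPKM in SCD and 1.53, 5.59 and 37.9 FPKM in SVC. Its libraries of 30 DAG were spread widely, with replicate 3 nearest to SCD (log2 fold change −3.17 ± 0.68, limma adjusted p = 0.0022). Without SVC replicate 3 its log2 fold change was −4.26, and without replicate 1 it was −2.28. With the spread from only the 6 libraries compared, the limma adjusted p values were 0.0031 for Pbr011579.1 and 0.041 for Pbr005220.1.

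Where the level at 30 DAG stood among the earlier days was compared gene by gene over the 12 homograft libraries, with no test, since the SCD libraries also chose the genes. In 494 of the 706 higher genes (70.0%), all 3 SVC libraries lay above all 9 libraries of 1, 5 and 9 DAG. In 272 of the 632 lower genes (43.0%), all SVC libraries lay below all earlier ones. Over all tested genes, these shares were 14.2% above and 7.03% below. Among the genes called without SVC replicate 2, the other SVC libraries lay beyond all earlier libraries in 777 of 878 higher genes (88.5%) and in 445 of 808 lower genes (55.1%). With fewer SVC libraries this condition is easier to meet. Its share over all tested genes was not calculated, so that these shares cannot be set against those above.

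The level at 1 DAG was set against SCD in the same way. In 342 of the 632 lower genes (54.1%), all 3 libraries of 1 DAG lay below all 3 SCD libraries, against 29.2% of all tested genes, and in 171 (27.1%) the mean at 1 DAG was at or below the mean at 30 DAG. The opposite order, with all libraries of 1 DAG above SCD, was found in 131 (20.7%), against 13.3% of all tested genes. Of the higher genes, 177 of 706 (25.1%) had all libraries of 1 DAG above all SCD libraries, against the same 13.3% of all tested genes, and 119 (16.9%) had the opposite order, against 29.2%. Both sets thus had their level of 1 DAG on the side of 30 DAG more often than all tested genes, and the SCD libraries used in choosing them are part of this comparison. A mean at 1 DAG at or above that at 30 DAG was found in 27 of the higher genes. The median log2(FPKM + 1) of the lower genes was 3.36 at 1 DAG, 3.64 at 5 DAG, 3.79 at 9 DAG and 2.48 at 30 DAG. That of the higher genes was 2.43, 2.54, 2.33 and 3.87 on the same days.

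**Figure D3:**
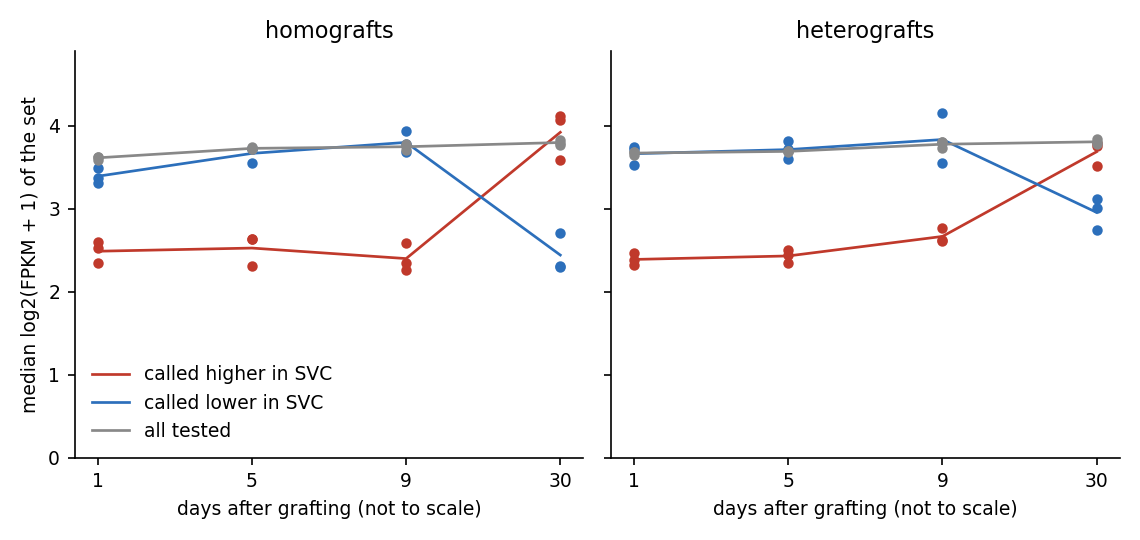
Median log2(FPKM + 1) of the genes called higher (red, 706) or lower (blue, 632) in SVC against SCD, and of all tested genes (grey), by days after grafting, which are not drawn to scale. Points are libraries and lines join the means of 3 libraries. In homografts the red and blue medians cross between 9 DAG (2.33 and 3.79) and 30 DAG (3.87 and 2.48), while all tested genes stay near 3.7.

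Genes of auxin and cytokinin signaling were taken from the families that the study reports. The study chose them on these same libraries, for differences between graft types, and their counts are not independent evidence. Of the 12 auxin genes, 7 were tested and 0 were called. Their log2 fold changes ran from −0.70 to 1.08 with a median of 0.36, against 0.05 for all tested genes. Over all tested genes, 5.39% were called. Of these 7, 0 had an adjusted p below 0.05, against 26.2% of all tested genes, and 3 had libraries that did not overlap between the days, near the 42.1% of all tested genes. With an unadjusted p below 0.05, 1 was called, Pbr023262.1, and voom on the recovered reads called 1, Pbr029742.1. Of the 5 cytokinin genes, all were tested, 1 was called lower and 0 were called higher (2.55% and 2.84% of all tested genes), with a median log2 fold change of −0.26.

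The 2 AUX1 genes encode carriers that bring auxin into the cell. Pbr033508.2 had 10.6, 12.4 and 20.0 FPKM in SCD and 6.17, 11.8 and 7.26 FPKM in SVC, which overlapped. Its log2 fold change was −0.70 ± 0.30, with a 95% interval from −1.32 to −0.09 and a limma adjusted p of 0.0857. Without SVC replicate 2 it was −0.95, with an adjusted p of 0.0333 and still below the fold limit. The other, Pbr029742.1, was low, with 0.610, 0.261 and 1.39 FPKM in SCD and 1.55, 1.60 and 2.09 FPKM in SVC. All SVC values were above all SCD values, and the limma adjusted p was 0.0586 (log2 fold change 0.69 ± 0.26). Its reads were 41 in SCD and 90 in SVC, a ratio of 2.39 after scaling to the library totals, with a 95% counting interval of 1.64 to 3.55. Counting intervals, here and below, cover counting error only and not the spread between libraries.

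Genes of the GH3 family encode enzymes that join auxin to amino acids and so lower free auxin. Pbr030688.1 had 4.39, 8.69 and 5.91 FPKM in SCD and 2.97, 6.29 and 2.70 FPKM in SVC. The days overlapped, and replicate 2 was the highest library of each day (log2 fold change −0.58 ± 0.49, limma adjusted p = 0.40). Pbr007550.1 was below the level needed for the test, with 0.772, 1.04 and 0.833 FPKM in SCD and 0.525, 0.685 and 0.232 FPKM in SVC. Its 62 and 31 reads gave a ratio of 0.545 with a counting interval of 0.342 to 0.852, which leaves out the spread between libraries. AUX/IAA proteins repress auxin-responsive genes until auxin has them degraded. The AUX/IAA gene Pbr033492.1 was also not tested, with 28 reads in SCD and 15 in SVC, a ratio of 0.584 with an interval of 0.290 to 1.13.

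SAUR genes are small genes that are switched on early by auxin, and many of them promote cell expansion. Of the 7 SAUR genes, 4 were tested. Pbr018494.1 had 5.83, 3.36 and 4.38 FPKM in SCD and 9.19, 3.52 and 6.34 FPKM in SVC, with the replicate 2 libraries lowest on both days. Pbr042214.1 was higher in each SVC library (3.44, 4.48 and 3.65 FPKM) than in each SCD library (1.60, 3.28 and 1.82 FPKM). The log2 fold changes were 0.36 ± 0.30 and 0.62 ± 0.47, below the fold limit in both genes, with limma adjusted p values of 0.40 and 0.36. Pbr010681.1 had 1.73, 3.76 and 3.07 FPKM in SCD and 1.13, 1.95 and 1.32 FPKM in SVC, and its log2 fold change was −0.62 ± 0.46.

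Pbr023262.1 came nearest to a call among the SAUR genes. It had 0, 0.249 and 1.10 FPKM in SCD and 1.99, 2.45 and 1.38 FPKM in SVC, with no overlap. The log2 fold change was 1.08 ± 0.43, the unadjusted p was 0.0211 and the limma adjusted p was 0.0704. It rested on 5 reads in SCD and 21 in SVC, a ratio of 4.58 with a counting interval of 1.68 to 15.5. The 3 SAUR genes that were not tested had 1 and 0 reads (Pbr009936.1), 1 and 1 reads (Pbr023263.2) and 9 and 9 reads (Pbr040904.2) in SCD and SVC. For Pbr040904.2 the ratio was 1.09 with a counting interval of 0.383 to 3.10, and for the others the reads were too few for a ratio.

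Cytokinin is sensed by receptor kinases, whose phosphate passes through AHP proteins to type-B ARR transcription factors. Type-A ARR genes are early targets of this pathway and their products restrain it. The type-A ARR gene Pbr002919.1 fell between the days. It had 24.1, 41.8 and 30.2 FPKM in SCD and 3.36, 14.6 and 5.09 FPKM in SVC, so that the lowest SCD library was above the highest SVC library. Replicate 2 was the highest of each day. The log2 fold change was −2.11 ± 0.40 (SE, n = 3 per day), with a 95% interval from −2.95 to −1.27 and a limma adjusted p of 0.000864. Without SVC replicate 2 it was −2.65. The level at 30 DAG, 7.69 ± 6.07 FPKM (SD, n = 3), lay near the 8.83 ± 1.33 FPKM of 1 DAG, below the 20.7 ± 4.69 FPKM of 5 DAG and the 32.1 ± 8.96 FPKM of 9 DAG.

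The other type-A ARR genes did not pass the test. Pbr009193.1 had 36.0, 59.8 and 44.9 FPKM in SCD and 43.4, 42.6 and 30.3 FPKM in SVC, which overlapped (log2 fold change −0.26 ± 0.29). Pbr024916.1 had 32.4, 51.6 and 33.7 FPKM in SCD and 44.2, 33.0 and 38.2 FPKM in SVC, and its log2 fold change was −0.01, with a 95% interval from −0.42 to 0.41. The sign of its difference changed with the library left out. A test of how the type-A ARR genes differ from each other was not made.

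The type-B ARR gene Pbr012127.1 was abundant on both days. It had 59.0, 54.4 and 63.1 FPKM in SCD and 63.0, 72.0 and 62.0 FPKM in SVC, and the 95% interval of its log2 fold change, −0.04 to 0.35, was the narrowest among the tested hormone genes. The AHP gene Pbr015522.1 had 2.92, 7.49 and 7.20 FPKM in SCD and 0.952, 5.83 and 4.45 FPKM in SVC. Replicate 1 was the lowest library on both days, and the difference stayed within the spread (log2 fold change −0.64 ± 0.44, limma adjusted p = 0.30).

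**Figure D4:**
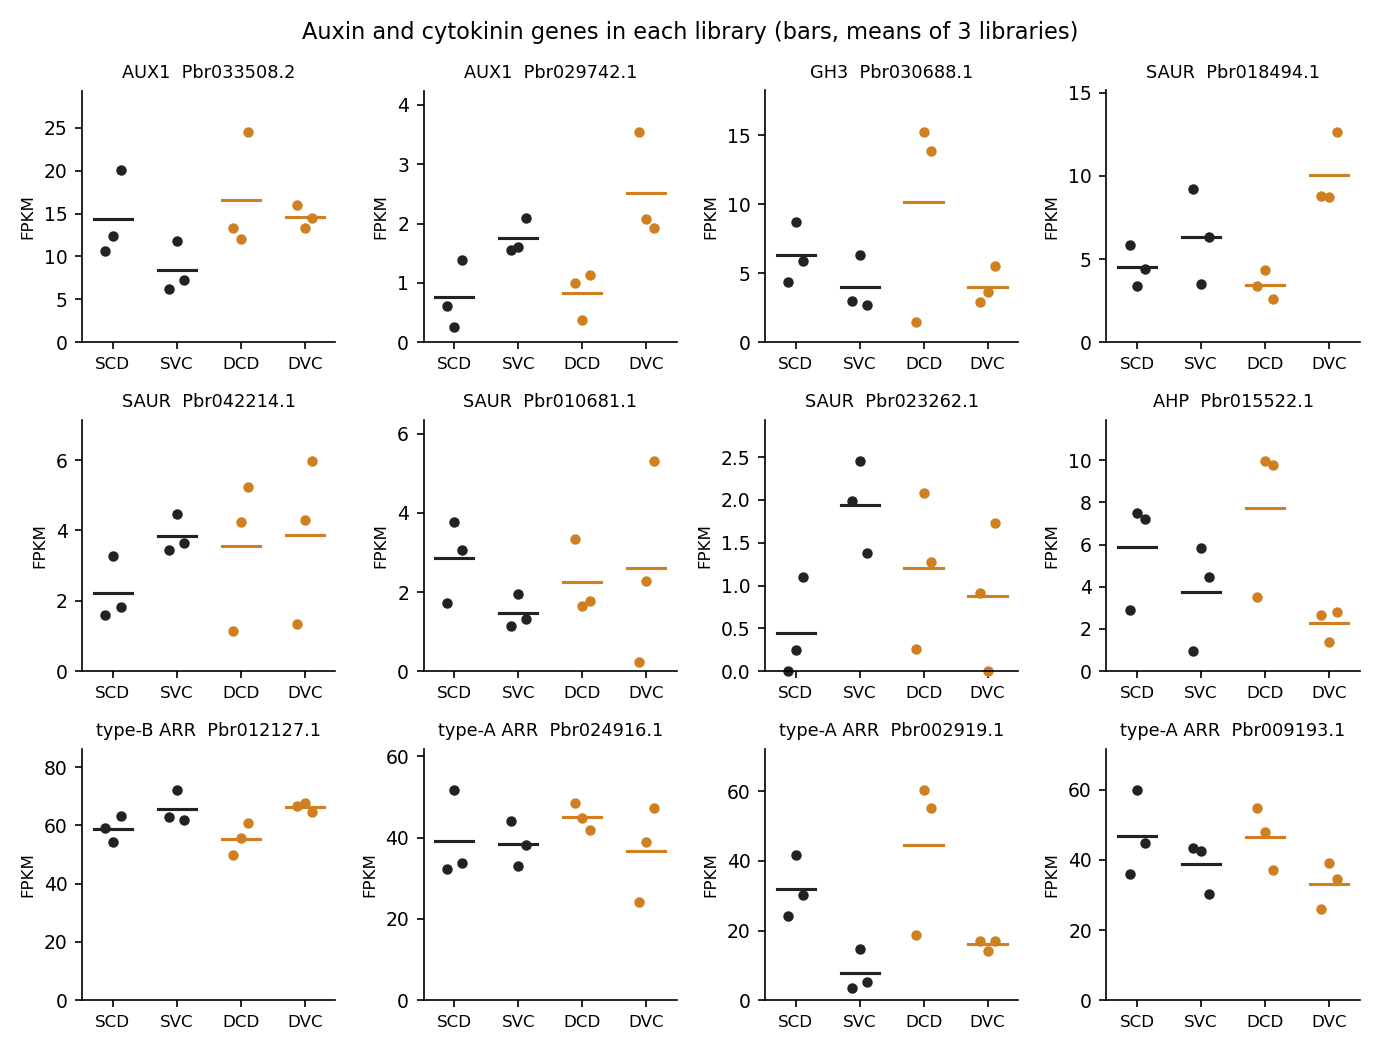
FPKM of the 12 tested auxin and cytokinin genes in each library of 9 DAG (SCD, DCD) and 30 DAG (SVC, DVC). Black points are homograft and orange points heterograft libraries, in the order of replicates 1 to 3, and bars are means of 3 libraries. Pbr002919.1, a type-A ARR gene, was the 1 gene of these called between SCD (24.1 to 41.8 FPKM) and SVC (3.36 to 14.6 FPKM).

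Beta-glucosidases split glucose from glycosides, including those of lignin precursors and of hormones. The beta-glucosidase gene of the study, PbBglu13 (Pbr042200.2), had 0.764, 1.64 and 0.653 FPKM in SCD and 3.44, 0.358 and 4.66 FPKM in SVC. SVC replicates 1 and 3 were above all SCD libraries and replicate 2 was below them, and the gene was not called (log2 fold change 0.72 ± 0.52, limma adjusted p = 0.33). Without SVC replicate 2 the log2 fold change was 1.35, with an adjusted p of 0.057. From 1 to 5 DAG its means were 0.674 and 1.24 FPKM.

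A further 15 genes are listed by the study with qPCR primers, by identifier only. Of these, 14 were tested, 1 was called higher and 1 lower, against 2.84% and 2.55% of all tested genes. An adjusted p below 0.05 was reached by 4 genes in the higher and 1 in the lower direction, against 14.8% and 11.4% of all tested genes. Their median log2 fold change was 0.18. Pbr015699.1 rose from 31.3, 21.1 and 42.7 FPKM in SCD to 88.7, 75.4 and 91.6 FPKM in SVC, with no overlap and with replicate 2 lowest on both days (log2 fold change 1.45 ± 0.26, limma adjusted p = 0.000568). Pbr016153.1 fell from 65.4, 66.2 and 61.4 FPKM in SCD to 24.8, 38.8 and 22.3 FPKM in SVC (log2 fold change −1.18 ± 0.26, limma adjusted p = 0.0027). Its means at 1 and 5 DAG were 30.0 and 55.2 FPKM, so that its level at 30 DAG, 28.6 FPKM, was close to that of 1 DAG.

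Smaller increases passed the adjusted p but not the fold limit in 3 of these genes. Pbr010535.1 had 11.4, 6.84 and 14.7 FPKM in SCD and 20.5, 19.1 and 19.4 FPKM in SVC (log2 fold change 0.84 ± 0.21, limma adjusted p = 0.0058). For Pbr035679.1 the means were 38.1 ± 0.840 and 49.5 ± 5.86 FPKM (SD, n = 3), and for Pbr035767.1 they were 17.9 ± 0.507 and 22.5 ± 0.285 FPKM. Both had libraries that did not overlap between the days, with log2 fold changes of 0.36 and 0.31. Their adjusted p depended on the setting. For Pbr035679.1 it was 0.0759 without SVC replicate 2, 0.05003 without SCD replicate 2 and 0.0736 with a replicate block, and for Pbr035767.1 it was 0.0503 with upper-quartile scaling and 0.0843 with the block. The other tested genes of this list had log2 fold changes from −0.34 to 0.43 with no adjusted p below 0.05, and Pbr036247.1, with 37 and 24 reads, was not tested.

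Whether the change in homografts also took place in heterografts was examined in separate libraries of the same days, DCD and DVC, over the same genes and in the same fit. Whether libraries of the graft types were handled together by replicate number is not stated in the labels. Deviations of SCD and DCD libraries with the same number from their group means had correlations of 0.19, 0.14 and 0.21 over the tested genes. Between SVC and DVC these were −0.11, −0.06 and 0.16. Different numbers reached 0.21 between SVC replicate 2 and DVC replicate 1, and 0.23 between DCD replicate 3 and DVC replicate 1. What such shared deviations add to the shared calls was not tested. In heterografts, 424 genes were higher (1.71%) and 367 lower (1.48%) at 30 DAG, in all 3.19% of the tested genes. Of the 706 genes higher in homografts, 285 were also called higher in heterografts, which is 40.4% of the homograft and 67.2% of the heterograft calls. Of the 632 lower genes, 239 were also called lower, 37.8% of the homograft and 65.1% of the heterograft calls. In the opposite direction 0 genes were called. The sign was shared by 697 of the 706 and by 610 of the 632 genes. Over all tested genes, the heterograft sign was positive in 53.9% and negative in 46.1%. The heterograft counts depended on single libraries, with 449 genes called, 158 of them lower, without DCD replicate 2, with 208 lower without DVC replicate 1 and with 742 lower without DCD replicate 1. Without SVC replicate 2, the shared calls were 306 of 878 higher genes (34.9% and 72.2% of the calls of homografts and heterografts) and 267 of 808 lower genes (33.0% and 72.8%).

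The size of the change was compared in both directions, because choosing genes in 1 graft type favours larger values there. The genes called in homografts had median log2 fold changes of 1.33 and −1.26 in homografts and of 0.93 and −0.91 in heterografts. Those called in heterografts had medians of 1.27 and −1.18 in heterografts and of 1.32 and −1.13 in homografts. Over all tested genes, the 5th and 95th percentiles were −0.80 and 0.80 in homografts and −0.71 and 0.72 in heterografts. The log2 fold changes of both graft types had a Pearson r of 0.775 and a Spearman rho of 0.743 across 24821 genes, which are not independent replicates. The DVC libraries lay at 0.86, 0.71 and 0.78 on the homograft axis, and the DCD libraries at 0.19, −0.02 and 0.16. With SVC replicate 2 left out of the axis, DVC lay at 0.64 to 0.73.

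**Figure D5:**
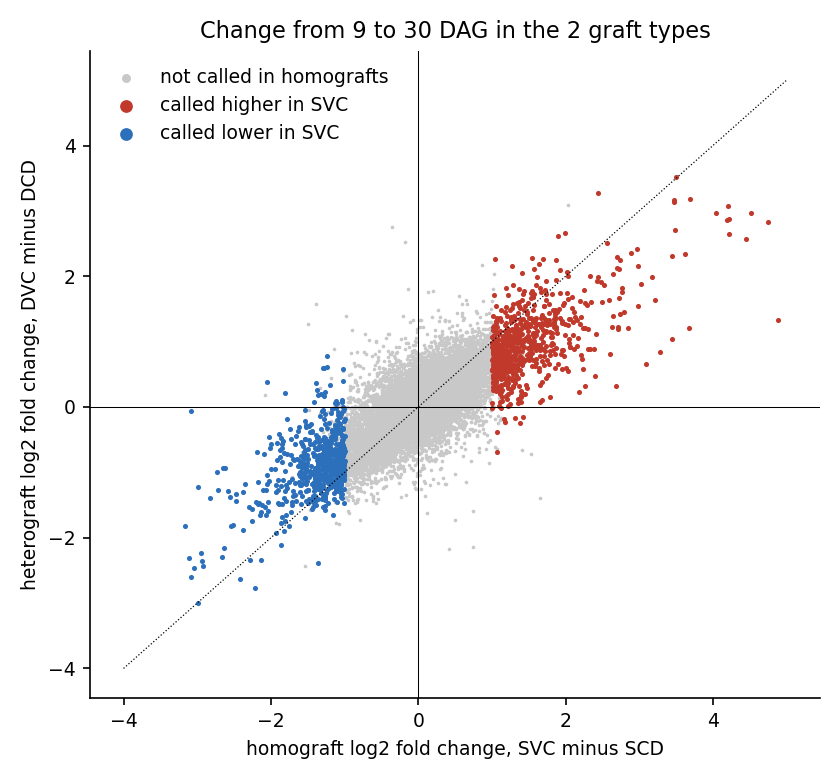
Log2 fold change from 9 to 30 DAG in heterografts (DVC minus DCD) against that in homografts (SVC minus SCD) for the 24821 tested genes, on log2(FPKM + 1). Red and blue points are the 706 and 632 genes called higher and lower in homografts, and the dotted line marks equal change. Of these, 697 and 610 lie on the same side of 0 in heterografts, where 53.9% of all tested genes lie above 0 and 46.1% below.

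No gene showed a difference between the graft types in this step that passed the adjusted p. In limma, the difference of the log2 fold changes, homograft minus heterograft, gave 0 genes at an adjusted p below 0.05, and the smallest adjusted p was 0.374. Voom on the recovered reads also gave 0 genes, as did a replicate block that paired homograft and heterograft libraries within each day (smallest adjusted p 0.61). At an unadjusted p below 0.05 there were 1212 genes, 4.88% of those tested, of which 266 (1.07%) also had a difference above 1 in size, with 131 (0.528%) positive and 135 (0.544%) negative. The 95% interval of the difference lay wholly between −1 and 1 in 75.6% of the tested genes, but in only 308 of the 1338 called genes. For most of the called genes, a difference between graft types of 2-fold was therefore neither shown nor bounded.

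Of the named hormone and primer genes called in homografts, both Pbr002919.1 and Pbr015699.1 were also called in heterografts. Pbr016153.1, the third, had a log2 fold change of −0.81 there, below the fold limit. Pbr002919.1 had 18.7, 60.2 and 55.1 FPKM in DCD and 17.1, 14.0 and 17.0 FPKM in DVC, and fell there too (log2 fold change −1.26 ± 0.40, limma adjusted p = 0.0295). The difference from the homograft change was −0.85 with a 95% interval from −2.03 to 0.34. Pbr015699.1 rose in heterografts from 18.4, 22.3 and 34.2 FPKM to 72.0, 62.1 and 85.2 FPKM (log2 fold change 1.55 ± 0.26, limma adjusted p = 0.000544), and the interval of the difference was −0.87 to 0.67. Over all tested genes, 1.71% were called higher and 1.48% lower in heterografts. Of the 7 auxin and 5 cytokinin genes tested, 2 others were called in heterografts but not in homografts. They were the SAUR gene Pbr018494.1, with 3.38, 4.36 and 2.62 FPKM in DCD and 8.81, 8.73 and 12.6 FPKM in DVC, and the AHP gene Pbr015522.1, with 3.50, 9.94 and 9.79 FPKM in DCD and 2.66, 1.40 and 2.81 FPKM in DVC. Their differences from the homograft change were −0.95 (interval −1.83 to −0.08) and 0.69 (−0.59 to 1.98), and the limma adjusted p values of the difference were 0.98 and 1.00.

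Pbr017001.1 had the largest difference between the graft types among the named genes. It was named for its large change in homografts, which favours a larger value there, so that its difference is given as a description. In heterografts it had 0 reads in DCD and 13 reads in DVC, against 4 and 322 reads in homografts. The difference was 3.56 with a 95% interval from 1.95 to 5.17, an unadjusted p of 0.000177 and a limma adjusted p of 0.40. Pbr028374.1 had 1.17, 0.736 and 2.05 FPKM in DCD and 17.7, 14.5 and 13.3 FPKM in DVC, and also rose there (2.83 ± 0.42 on the log2 scale, limma adjusted p = 0.000229). PbBglu13 had larger values in every heterograft library than in any homograft library of these days, with 8.82, 7.11 and 8.95 FPKM in DCD and 18.4, 6.24 and 9.87 FPKM in DVC, and its change there was 0.32 ± 0.52. The study reports this gene for higher expression in heterografts, after a search of these same libraries. The order of the graft types in these libraries is therefore not independent evidence. The study also shows relative expression of the gene and lists qPCR primers for it. Its results further give higher beta-glucosidase activity in heterografts at callus formation, cambium differentiation and vascular connection, which measures enzyme and not RNA.

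The called genes had features that the test did not use. Their implied coding length had a median of 854 bp in the higher and 933 bp in the lower genes, against 1125 bp in all tested genes. Shorter genes have fewer reads at the same FPKM, and what this does to the calls was not tested. In 16753 pairs of tested genes with consecutive numbers in their identifiers, both genes were called in the same direction in 73 and in opposite directions in 10. Of the 895 pairs whose first gene was called, the second was called in the same direction in 8.16%, against 2.84% of all tested genes called higher and 2.55% called lower, and the log2 fold changes of the pairs had a Pearson r of 0.108. Near-identical gene copies can share reads, and the treatment of such reads is not given in the sources used here. The most abundant gene of these 6 libraries took 0.862% to 0.924% of the reads in SCD and 1.43% to 1.63% in SVC (exact permutation p = 0.1, the smallest possible).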

How the data were processed

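Graft unions were profiled by RNA-seq in 24 libraries, 3 for each graft type and day. Cutadapt was used by the authors for trimming, HISAT2 for alignment to scaffolds of Pyrus bretschneideri, and HTSeq for counting. They deposited gene levels as FPKM, without a log. A test for counts was used in the study, but because the deposited unit is FPKM, values were fitted here on a log2 scale after adding 1, in limma 3.58.1 under R 4.3.3, with 8 condition means, a trend of variance with level, and two-sided tests. Whole reads were recovered from the FPKM values (tolerance 0.02 reads) for each of the 32966 genes that had reads in 4 or more libraries, and all implied lengths of well covered genes were multiples of 3, as in coding sequences. Groups came from the sample titles. The series description names the heterograft partners in the opposite order, which does not change the groups.

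The genes and lists were chosen with earlier results of these data known. Named genes were all those the study gives with a hormone family or as PbBglu13 (18), the 15 primer genes given by identifier only, and the 2 largest changes in each direction among called genes whose days did not overlap. Lignin and sugar genes were not analysed here, nor were sequences. Alternatives were upper-quartile scaling, no trend, other filters and pseudocounts, fits of 6 or 12 libraries, a replicate block, voom on recovered reads and each library left out. Voom for heterografts and for the difference between graft types, and the shared calls, earlier days and axis without SVC replicate 2, were added after the data were seen. Every same-number correlation of deviations was above 0.1 between SCD and DCD and none was between SCD and SVC. No label states a pairing, and a block within day was therefore also added. Code was tested on simulated data. Remaining values were calculated in scipy 1.17.1, pandas 2.3.3 and numpy 2.4.6, under Python 3.11.15.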

Additional observations from a re-analysis of the deposited data

How the results depend on the processing

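Under all alternatives run, the number of genes called in homografts stayed within 1.5 times 1338, between 954 (a filter at an FPKM of 5) and 1752 (voom on recovered reads, which kept 1250 of the calls). Leaving out each of the 6 libraries gave 1045 to 1686 calls, kept 959 to 1239 of the 1338, and turned the sign of 0. Upper-quartile scaling shifted the median log2 fold change from 0.05 to −0.01 and gave 608 higher and 726 lower genes. In heterografts, 449 to 1177 genes were called with 1 library left out, and 158 to 742 of them were lower. The 742 came without DCD replicate 1, and the lower counts of 158 and 208 without DCD replicate 2 and DVC replicate 1. For the difference between graft types, the count was 266 with an unadjusted p (131 and 135), and 0 to 1 with 1 library left out. The 1, Pbr030522.1, named after its values were seen, was called without DVC replicate 2 (difference 2.91, limma adjusted p = 0.0494, and 0.50 with all libraries).

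Named genes near 0 changed sign. Pbr004636.1 (0.01) was −0.050 with upper-quartile scaling, −0.038 with voom and −0.025 to 0.038 with 1 library left out. Pbr021785.1 (0.03) was −0.024 and −0.021 with these, and −0.058 to 0.12 with 1 library left out. Pbr012591.1 ran from −0.063 to 0.067 and Pbr024916.1 from −0.12 to 0.20. Pbr023262.1 was called in the fits of 6 and of 12 libraries, and without SCD replicate 3 (1.38). Pbr029742.1 was called with a pseudocount of 0.1 (1.34) and with voom (1.46), and Pbr010535.1 without SCD replicate 3 (1.07). The deviations of SCD and SVC libraries with the same replicate number had correlations of 0.02, −0.07 and 0.02. Between SCD and DCD they were 0.19, 0.14 and 0.21, and libraries of different number reached as much in other comparisons. No label states a pairing. A block within day gave 0 genes for the difference. With a replicate block within graft type, 1206 genes were called in homografts, 630 in heterografts and 0 for the difference, and not every library correlated best with its own number. Counts below about 30 reads per day, as in 4 SAUR genes and the AUX/IAA gene, limit what these libraries can show.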
